A study of Mus musculus with 4 samples.

Results

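Cystatins are small proteins that block cysteine proteases, and cathepsins are proteases of the lysosome, many of them targets of that inhibition. A type of cystatin gene particular to the male reproductive tract lies beside the gene of the secreted inhibitor cystatin C on mouse chromosome 2, and several of its products lack residues of the inhibitory site that cystatin C has. In the testis, Sertoli cells nurse the germ cells and digest the residual bodies of spermatids, and in the rat they secrete cathepsin L, while cathepsin S is a protease of macrophages. The genes described here are 7 cystatins (Cst3, Cst8, Cst9, Cst11, Cst12, Cst13 and Cstb) and 3 cathepsins (Ctsl, Ctsb and Ctss), 10 of 49492 gene rows. They were taken by name. Cst9 and Cst13 were on the list because they had been seen to rise in the contrast used here, so their differences are given as a description with no test, and the other 8 are their relatives.

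Whole testis RNA was sequenced from male C57BL/6J mice, all given LPS, a bacterial endotoxin. By the labels, 2 libraries carry a hairpin against Spry1, whose product dampens growth factor signals through receptor tyrosine kinases, and 2 carry a control hairpin in mice labelled WT. The sources used here give no age, LPS dose, time after LPS or route of hairpin delivery. They also leave unsaid whether replicates come from different mice, so each p-value reflects the spread of these libraries alone, which may be technical. The columns of the count table carry the headings LPS and NC, which are not the sample titles. They were read as the Spry1 knockdown and the control hairpin, and since LPS is in all 4 titles, the headings could instead mean LPS against no LPS, in which case every difference below belongs to that contrast. For that reason the groups keep the names of their headings, LPS columns and NC columns.

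The libraries held 17612342 to 22451132 counts. Spry1 had 26 and 17 counts in the LPS columns, against 45 and 41 in the NC columns (log2 fold change -0.82 ± 0.28 SE), a call that was lost with DESeq2 and in 3 of the 4 fits that left out a library. Levels are given as CPM, the counts of a gene scaled to a common library size. Markers of Sertoli, Leydig and germ cells and of macrophages were detected. The summed level of 15 elongating spermatid markers was 27672 and 27552 CPM in the LPS columns, against 36179 and 35452 CPM in the NC columns. Its largest parts were Odf2, with means of 9314 CPM in the LPS columns and 10976 CPM in the NC columns, and Prm2, with 6503 and 10485 CPM. Of 16 epididymis markers, 4 had no count in any library, and the 15 other than Lcn2, a gene also made by inflamed tissue, summed to 5.32 to 5.88 CPM in the LPS columns, against 6.14 to 6.77 CPM in the NC columns.

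In the LPS columns Cst9 stood at 5.69 times its NC level and Cst13 at 1.40 times. Among the 8 relatives, the cytosolic inhibitor Cstb and all 3 cathepsins, Ctss, Ctsl and Ctsb, rose, though Ctsb lost its call in 4 of the 11 other settings. The secreted inhibitor Cst3 and the reproductive cystatins Cst8 and Cst12 did not pass the test, and Cst11 had too few counts to be tested. Calls rest on the quasi-likelihood test of edgeR at a threshold of 0.05, after Benjamini-Hochberg adjustment over the 20855 genes that passed the filter on low counts. Of the 7 tested relatives, 4 were called, all higher, where 31.5% of all tested genes were called, 15.2% as higher and 16.3% as lower. Their median log2 fold change was 0.21, beside 0.00225 over all tested genes. In 6 of the 7 the CPM of the groups did not overlap, which was also so for 64.1% of all tested genes, 32.1% with the LPS columns higher and 32% with them lower.

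The 6 cystatin genes on chromosome 2 lie within 107.1 kb, from 148768609 to 148875692 in mm10. Upstream sequences of 4 genes are shown because they set the chosen pair beside a neighbour that did not pass the test and beside the cathepsin gene with the largest rise among the 3. Each is the 250 bases before the RefSeq gene start in GRCm38.p6, which is mm10, read 5′ to 3′ on the gene's own strand. All 4 genes are on the plus strand. Capitals mark matches to any of the 8 motifs named after the sequences. The windows are Cst9 at chr2:148834897-148835146, Cst13 at chr2:148819849-148820098, Cst8 at chr2:148798589-148798838 and Ctss at chr3:95526536-95526785.
Cst9: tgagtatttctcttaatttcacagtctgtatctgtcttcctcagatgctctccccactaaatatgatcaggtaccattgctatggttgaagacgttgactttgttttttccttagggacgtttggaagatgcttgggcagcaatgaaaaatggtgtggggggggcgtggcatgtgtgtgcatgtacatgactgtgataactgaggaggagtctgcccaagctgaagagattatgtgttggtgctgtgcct
Cst13: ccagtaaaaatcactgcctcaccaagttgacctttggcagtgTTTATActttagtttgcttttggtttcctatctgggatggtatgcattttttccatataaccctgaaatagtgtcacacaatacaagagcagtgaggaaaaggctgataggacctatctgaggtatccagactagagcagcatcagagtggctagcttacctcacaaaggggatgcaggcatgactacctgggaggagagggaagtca
Cst8: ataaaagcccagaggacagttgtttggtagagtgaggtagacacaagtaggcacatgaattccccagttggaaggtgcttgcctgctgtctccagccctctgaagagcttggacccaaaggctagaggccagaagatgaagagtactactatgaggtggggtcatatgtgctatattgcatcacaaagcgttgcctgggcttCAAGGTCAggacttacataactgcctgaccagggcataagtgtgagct
Ctss: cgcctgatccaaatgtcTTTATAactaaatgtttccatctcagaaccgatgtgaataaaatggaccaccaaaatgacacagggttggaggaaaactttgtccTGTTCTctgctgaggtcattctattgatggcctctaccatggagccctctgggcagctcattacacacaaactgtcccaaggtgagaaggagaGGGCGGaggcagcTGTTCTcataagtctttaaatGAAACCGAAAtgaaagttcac

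The motifs searched on both strands were the TATA box TATAAA, the GC box GGGCGG, the NR5A site CAAGGTCA, AGAACA, a single arm of the androgen receptor element, the SOX site AACAAT, the interferon-stimulated response element core (GAAA, any 2 bases, GAAA), the cyclic AMP response element TGACGTCA and the NF-kB site. No motif overlapped another in the 4 windows shown. The Cst9 window held none of them. Cst13 had 1 match, to TATAAA on the minus strand, 208 bases before the start, and 12.4% of all 32851 RefSeq windows of the same length hold that motif. Cst8 had 1 match, to CAAGGTCA, 48 bases before the RefSeq start, a motif that 1.3% of windows hold. The deposited Cst8 row begins earlier, at 148798785, so this match lies inside the gene as counted. The deposited rows of Cst3, Cst12 and Cst13 also begin inside their windows. Ctss had matches to 4 motifs, among them GAAACCGAAA, 21 bases before the start, which fits the interferon-stimulated response element core that 3.0% of windows hold. Its others were TATAAA, the GC box and AGAACA, held by 12.4%, 32.7% and 16.1% of windows. Of the 10 genes, 7 were in the sequence table, and Cst11, Cstb and Ctsb were not. In the 3 windows not printed, Cst3 had 1 match to the GC box and 2 to AGAACA, Ctsl had 1 to AACAAT, and Cst12 had none. The GC box is held by 32.7% of all windows, AGAACA by 16.1% and AACAAT by 9.4%. The GC content was 45.6% for Cst9, 44.8% for Cst13, 49.6% for Cst8 and 59.6% for Cst3, where the median window has 52.4%. It was 44.8% for Ctss, 47.2% for Ctsl and 52.8% for Cst12. These matches are letters in a window and say nothing about binding.

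Levels differed widely between the 10 genes. Levels of different genes are compared as CPM per kilobase of exon (RPKM), and all other levels are CPM, both with the libraries scaled by TMM. Cst8, the CRES gene of postmeiotic germ cells and the epididymis, was the highest of the 10 in every library, at 249 to 264 RPKM. Ctsl came next, at 102 to 156 RPKM, then Cst3 at 83.5 to 92.7 RPKM, and the ranges of these 3 genes over the 4 libraries did not overlap. The order of the next genes differed with the group. Cst13 was at 74.2 and 78.4 RPKM in the LPS columns, above Cst12 at 56.5 and 46.8 RPKM, and in the NC columns Cst13, at 51.0 and 58.1 RPKM, overlapped Cst12, at 52.2 and 53.0 RPKM. Cst9 was at 43.0 and 35.3 RPKM in the LPS columns, above Cstb at 29.6 and 29.5 RPKM. In the NC columns Cst9, at 7.67 and 6.10 RPKM, lay below Cstb, at 22.5 and 21.2 RPKM, and also below Ctsb, at 9.06 and 9.20 RPKM. Ctss, at 3.61 to 8.21 RPKM, was below every other gene but Cst11 in each library, and Cst11 was the lowest, at 0.0825 to 0.555 RPKM.

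**Figure D1:**
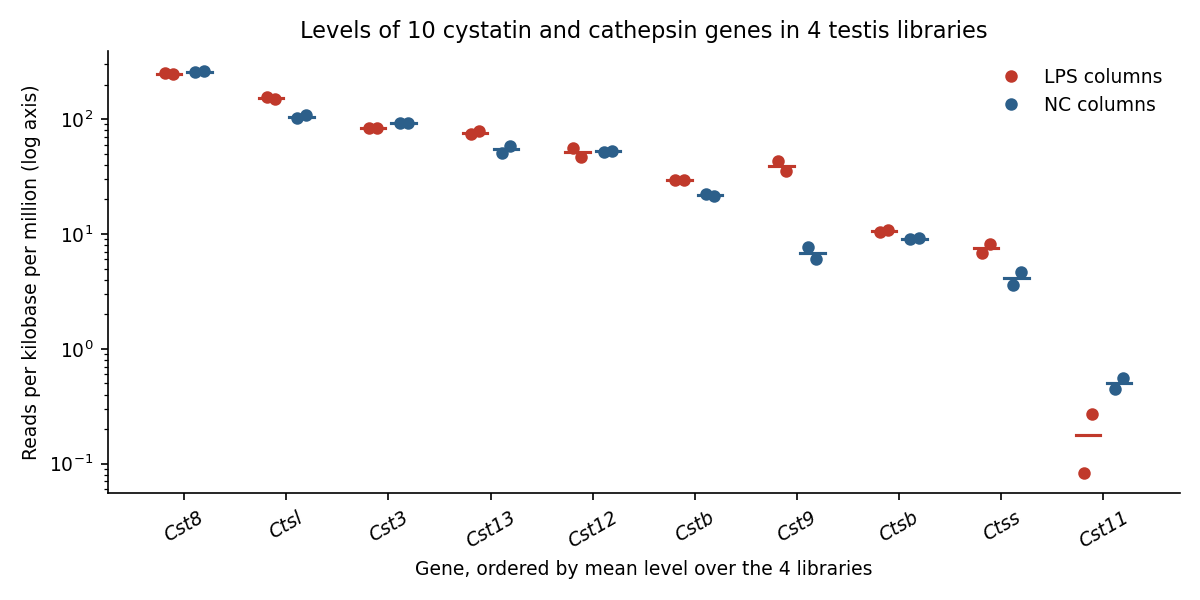
Level of each of the 10 genes in RPKM on a log axis, with 1 point per library and a bar at the mean of 2 libraries (LPS columns red, NC columns blue). Cst8 is the highest gene in all 4 libraries, and Cst9 shows the widest gap between the groups on this axis, with means of 39.2 RPKM in the LPS columns and 6.89 RPKM in the NC columns.

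Cst9 encodes testatin, a cystatin first described in pre-Sertoli cells of the fetal mouse testis. It had 583 and 433 counts in the LPS columns, against 116 and 86 in the NC columns. Both LPS libraries lay far above both NC libraries. Scaled, that is 26.9 ± 3.77 CPM in the LPS columns and 4.73 ± 0.76 CPM in the NC columns (SD, n = 2 each), a log2 fold change of 2.51 ± 0.12 (SE). Among all 20855 tested genes, 151 had a larger log2 fold change. The contrast chose Cst9, so these values describe it and test nothing. Under the 11 other settings the log2 fold change was 2.35 to 2.69.

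Cst13, named Cymg1 in older annotation, lies directly before Cst9 on the same strand, its start 15.1 kb away. It had 1146 and 1097 counts in the LPS columns, against 878 and 934 in the NC columns. Scaled to the libraries, these were 58.1 and 61.4 CPM in the LPS columns, against 39.9 and 45.5 CPM in the NC columns. The groups did not overlap, which was also so for 64.1% of all tested genes. The log2 fold change was 0.49 ± 0.07 (SE), and 2195 of the tested genes had a larger one. It was chosen by the same contrast and is likewise a description.

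Of the neighbours before this pair, Cst8 and Cst12 did not pass the test and Cst11 was too low for one. Cst8 had 4207 and 3800 counts in the LPS columns, against 4790 and 4614 in the NC columns, which is 213 ± 0.44 CPM in the LPS columns and 221 ± 5.08 CPM in the NC columns (SD, n = 2 each). Its log2 fold change was -0.05 ± 0.05 (edgeR, Benjamini-Hochberg adjusted p = 0.474), and its sign turned to 0.01 with library size as the only scaling. Cst12, also called CRES3, had 37.0 and 30.7 CPM in the LPS columns, against 34.2 and 34.7 CPM in the NC columns. The NC libraries lay between the LPS libraries. Its log2 fold change was -0.02 ± 0.08 (edgeR, Benjamini-Hochberg adjusted p = 0.865), with 0.04 with library size as the only scaling and 0.10 without LPS replicate 2. Cst11, also called CRES2 and best known from the epididymis, had 1 and 3 counts in the LPS columns, against 6 and 7 in the NC columns. The ratio of scaled counts was 0.348, with an exact binomial 95% interval of 0.0827 to 1.13 that covers counting error only, so no difference was detectable at this depth.

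Cst3 encodes cystatin C, the widely expressed secreted inhibitor of cysteine cathepsins, and closes the group on the opposite strand. It had 2085 and 1901 counts in the LPS columns, against 2573 and 2409 in the NC columns. That is 106 ± 0.48 CPM in the LPS columns and 117 ± 0.33 CPM in the NC columns (SD, n = 2 each), so the groups did not overlap. The log2 fold change was -0.14 ± 0.06 (edgeR, Benjamini-Hochberg adjusted p = 0.0506), which lies at the threshold. It passed as lower with RLE size factors (adjusted p = 0.0490), with a filter at 1 CPM (0.0444) and with the replicate number as a block (0.0424), all in edgeR with Benjamini-Hochberg adjustment.

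The gene row between Cst9 and Cst3 went the other way from Cst9. This row, 9230104L09Rik, is named Cstdc2 in RefSeq and had 24 and 30 counts in the LPS columns, against 93 and 80 in the NC columns. Its log2 fold change was -1.50 ± 0.23 (edgeR, Benjamini-Hochberg adjusted p = 2.27e-06). At the far end of the group, just before Cst11, Cstl1 had 543 and 488 counts in the LPS columns, against 865 and 812 in the NC columns, a log2 fold change of -0.52 ± 0.08 (adjusted p = 9.73e-07). The row 8030411F24Rik, named Cstdc1 in RefSeq, was at 0.03 ± 0.17 (adjusted p = 0.919). Of the 8 gene rows from Cst11 to Cst3, 7 were tested. Apart from the chosen Cst9 and Cst13, 1 was called, as lower, beside 31.5% of all tested genes called, 16.3% as lower.

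**Figure D2:**
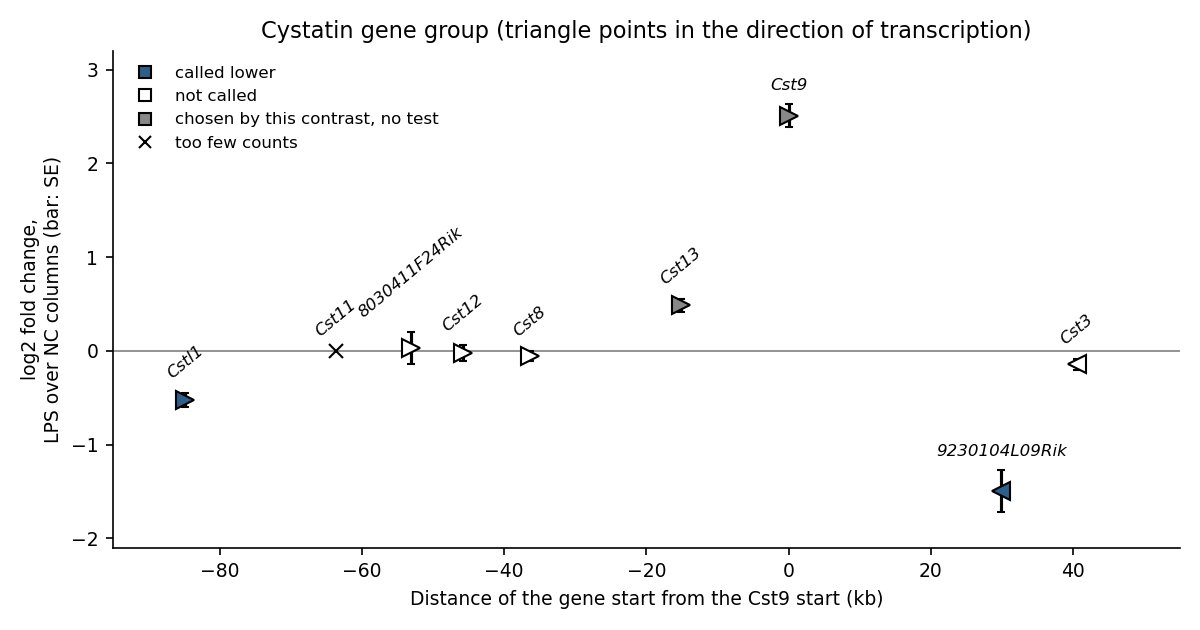
Log2 fold change (LPS columns over NC columns, bar: SE) of the cystatin gene group on chromosome 2 against the distance of each gene start from the Cst9 start in kb. Cst9 stands at 2.51, its neighbour 9230104L09Rik at -1.50, and the rows between Cst11 and Cst13 lie between -0.05 and 0.03.

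The shares of the 7 cystatins in their summed RPKM are given as a description, since Cst9 and Cst13 were chosen because they rose in this contrast. Cst9 made up 8.01% and 6.74% in the LPS columns, against 1.59% and 1.23% in the NC columns. Cst8 made up 46.6% and 47.6% in the LPS columns, against 53.0% and 53.2% in the NC columns, and Cst3 made up 15.6% and 16.0% in the LPS columns, against 19.2% and 18.7% in the NC columns. Not all genes outside the chosen pair had lower shares. Cstb made up 5.52% and 5.64% in the LPS columns, against 4.67% and 4.29% in the NC columns. Shares of a sum are tied to each other, so they cannot be read as levels of single genes.

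**Figure D3:**
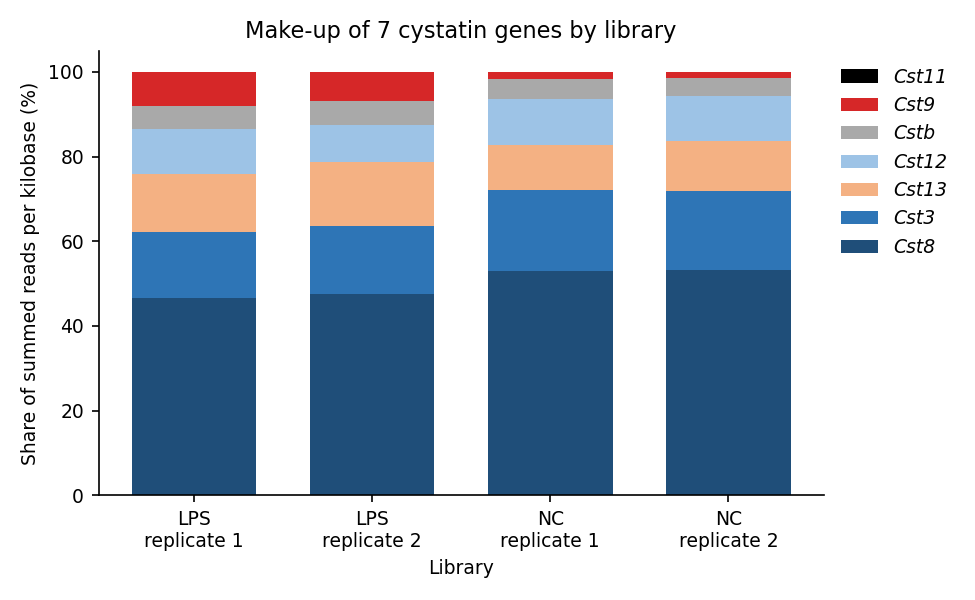
Share of each of the 7 cystatin genes in their summed reads per kilobase, in percent, with 1 bar per library. Cst9 (red), chosen like Cst13 for its rise in this contrast, takes 6.74% to 8.01% in the LPS columns and 1.23% to 1.59% in the NC columns, and Cst11 is too low to be seen.

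Cstb encodes stefin B, the cystatin of the cytosol and nucleus, and lies on chromosome 10. It had 350 and 316 counts in the LPS columns, against 296 and 261 in the NC columns, which is 17.8 and 17.7 CPM in the LPS columns, against 13.5 and 12.7 CPM in the NC columns. The 2 LPS libraries were nearly equal and above both NC libraries. It rose by 0.44 ± 0.10 on the log2 scale (edgeR, Benjamini-Hochberg adjusted p = 0.000772), a call kept in all 11 other settings with adjusted p up to 0.0278.

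Ctsl encodes cathepsin L, the protease that Sertoli cells secrete in stages of the seminiferous cycle in the rat. It had 6054 and 5275 counts in the LPS columns, against 4435 and 4362 in the NC columns. The mean was 301 ± 8.29 CPM in the LPS columns and 207 ± 7.80 CPM in the NC columns (SD, n = 2 each), with no overlap. It rose by 0.54 ± 0.05 on the log2 scale (edgeR, Benjamini-Hochberg adjusted p = 2.59e-10), and the call held in all 11 other settings, at 0.51 to 0.61.

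Ctss encodes cathepsin S, which trims the invariant chain of MHC class II molecules in antigen-presenting cells. It had 184 and 199 counts in the LPS columns, against 108 and 129 in the NC columns. The mean was 10.2 ± 1.28 CPM in the LPS columns and 5.60 ± 0.97 CPM in the NC columns (SD, n = 2 each), with no overlap. It rose by 0.87 ± 0.14 on the log2 scale (edgeR, Benjamini-Hochberg adjusted p = 6.87e-06), and the call held in all 11 other settings, at 0.71 to 1.06.

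Ctsb encodes cathepsin B, a lysosomal protease of most cell types. It had 966 and 919 counts in the LPS columns, against 945 and 895 in the NC columns, which is 49.0 and 51.5 CPM in the LPS columns, against 42.9 and 43.6 CPM in the NC columns. It rose by 0.21 ± 0.07 on the log2 scale (edgeR, Benjamini-Hochberg adjusted p = 0.0146). DESeq2 did not call it (adjusted p = 0.113), nor did edgeR once LPS replicate 2 (0.115), NC replicate 1 (0.0810) or NC replicate 2 (0.0509) was left out, and the adjusted p ranged from 0.00208 to 0.115 over the 11 other settings. Exons of Ctsb share 767 bases with Fdft1 on the opposite strand, and the strand setting of the counting is not known here, so reads there cannot be assigned with certainty.

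With Ctsl at the top, the summed level of the 3 cathepsins was 173 and 169 RPKM in the LPS columns, against 115 and 122 RPKM in the NC columns. Their sum over that of the 7 cystatins was 0.322 in both LPS libraries, against 0.239 and 0.246 in the NC libraries. The cystatin sum includes Cst9 and Cst13, chosen for their rise in this contrast, so the ratio is a description. Its largest part was Cst8, at 46.6% and 47.6% in the LPS columns, against 53.0% and 53.2% in the NC columns. Ctsl made up 88.7% to 90.1% of the cathepsin sum in the LPS columns and 88.6% to 89.0% in the NC columns.

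The rest of the family was counted from lists. Of 23 other cathepsins, legumain and related genes, 10 were tested, and 8 had no count in any library. Of the 10, 4 rose and 6 were not called, beside 15.2% called higher and 16.3% called lower among all tested genes. In edgeR, 1 gene of this list was also called lower with no filter on low counts, without LPS replicate 2 and without NC replicate 1. Those that rose were Ctsc, which activates serine proteases of leukocytes, at 1.22 ± 0.23 on the log2 scale (SE), the carboxypeptidase gene Ctsz at 1.22 ± 0.13, the protective protein gene Ctsa at 0.51 ± 0.12 and the aspartic protease gene Ctsd at 0.28 ± 0.07. All 4 kept their calls in the 11 other settings. Legumain (Lgmn), a protease that some cystatins also inhibit, had a log2 fold change of 0.20 ± 0.09 and was not called (edgeR, Benjamini-Hochberg adjusted p = 0.0711). Of 24 other cystatins listed, 20 were in the table and 3 were tested. Cstl1 and 9230104L09Rik fell and 8030411F24Rik was not called, beside 16.3% called lower among all tested genes. With no filter on low counts, edgeR called 3 of the listed cystatins lower. The median log2 fold change was 0.26 over the 10 tested cathepsins and -0.52 over the 3 tested cystatins, beside 0.00225 over all tested genes.

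**Figure D4:**
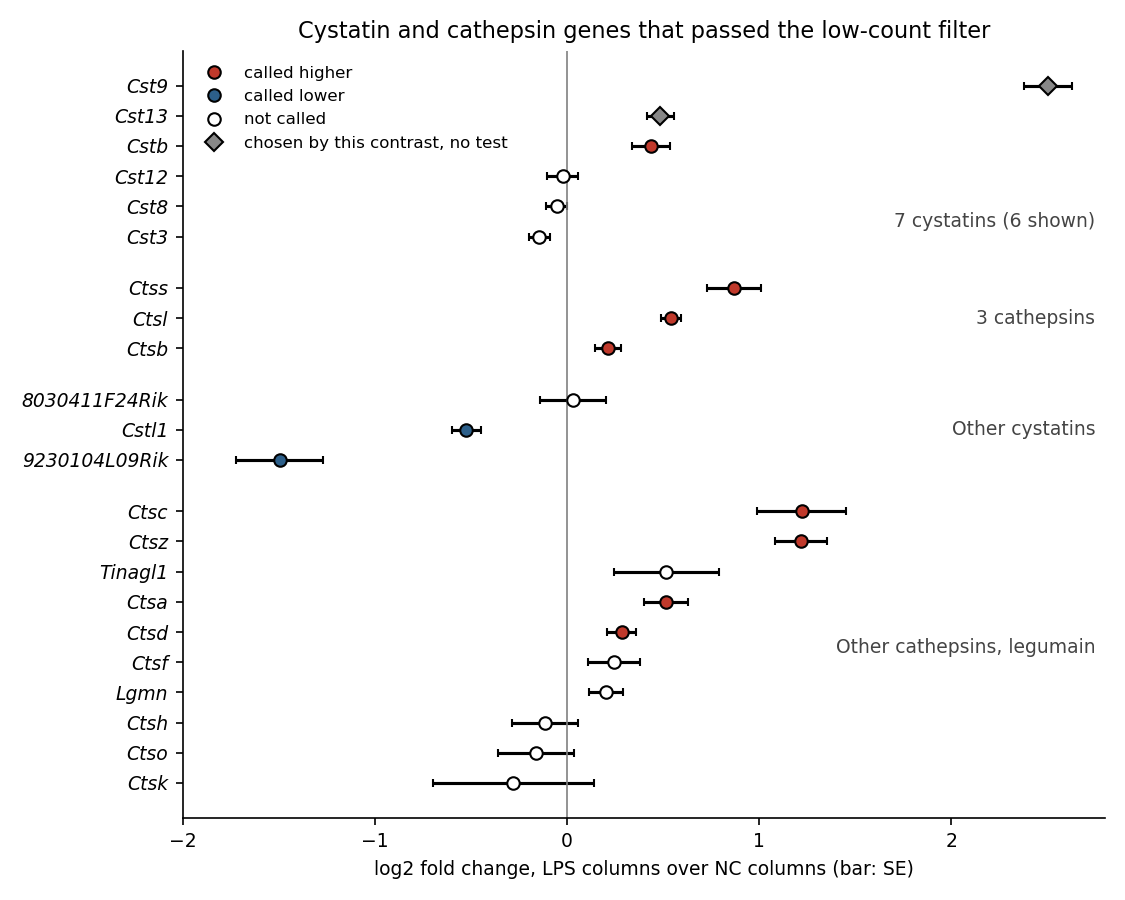
Log2 fold change (LPS columns over NC columns, bar: SE) of the cystatin and cathepsin genes that passed the low-count filter, coloured by the edgeR call at an adjusted p under 0.05. The 3 cathepsins rise by 0.21 to 0.87, Cst9 and Cst13 (grey) were chosen by this contrast and carry no call, and 9230104L09Rik and Cstl1 lie below 0.

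A list of lysosome genes was counted in the same way. Of 40 tested, 16 rose, 3 fell and 21 were not called, with a median of 0.24, beside 31.5% called among all tested genes, 15.2% higher and 16.3% lower. The largest rises were those of Lipa, the lysosomal acid lipase gene (0.94 ± 0.24, log2, SE), Acp5 (0.88 ± 0.31) and Smpd1, the acid sphingomyelinase gene (0.87 ± 0.26). Sgsh (-0.48 ± 0.13) and Tfeb, a regulator of lysosome genes (-0.41 ± 0.15), were among those that fell. DESeq2 called 6 of the 40, all as higher, and none of these 5 named genes passed with it. In edgeR, Acp5 lost its call without LPS replicate 2, NC replicate 1 or NC replicate 2, and Smpd1 and Tfeb without LPS replicate 2 or NC replicate 1. Tfeb also lost its call with library size as the only scaling and with no filter on low counts. The 16 rises were 10 without LPS replicate 2 and 10 without NC replicate 1.

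Markers of the cell types that carry these genes differed between the groups as well. In bulk tissue, fewer cells of a type and less RNA per cell cannot be told apart. Among the Sertoli cell markers 28 were tested, and 15 of them rose and 4 fell, beside 15.2% higher and 16.3% lower among all tested genes. The largest rises were those of Gata1 (log2 fold change 0.83), Nr0b1 (0.75) and Rhox5 (0.72). Trf (-0.47), Espn (-0.46) and Amhr2 (-0.35) had the largest falls. The Trf call was lost with DESeq2, with library size as the only scaling, without LPS replicate 2 and without NC replicate 2. The 30 Sertoli markers summed to 1760 and 1710 CPM in the LPS columns, against 1430 and 1453 CPM in the NC columns, and none was at 0 in all libraries. The largest part of that sum was Clu, with means of 769 CPM in the LPS columns and 560 CPM in the NC columns. The log2 fold change of Ctsl (0.54) was exceeded by 7 of the 28, which ranged from -0.47 to 0.83. Cst9 (2.51) was chosen for its rise in this contrast, so it is not ranked among these markers. The part of Sertoli cell content in the levels of Ctsl and Cst9 was not tested. For Cst13, the part of any cell type was not tested either.

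Among the macrophage markers 20 were tested, and 12 of them rose and 5 fell, beside 15.2% higher and 16.3% lower among all tested genes. Marco (6.18), Itgam (2.68) and Adgre1 (1.97) rose most on the log2 scale, and Cd163 (-2.0), Cx3cr1 (-0.91) and Csf1r (-0.74) fell most. The Cd163 call was lost with DESeq2, without LPS replicate 2 and without NC replicate 1. The list summed to 475 and 497 CPM in the LPS columns, against 425 and 455 CPM in the NC columns. Most of that sum was Aif1, at 286 CPM in the LPS columns and 329 CPM in the NC columns. Aif1 was called lower (-0.20), so the sum does not show how the other markers moved. No marker was at 0 in all libraries. The part of macrophage content in the level of Ctss was not tested.

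The counts that follow stand beside 15.2% of all tested genes called higher and 16.3% called lower. Among germ cell markers, 11 of 15 elongating spermatid genes fell and the other 4 were not called. Prm2 (-0.69), Fscn3 (-0.57) and Spem1 (-0.51) had the largest falls. Of 12 round spermatid markers, 7 fell, led by Spaca7 (-0.34), Lyzl1 (-0.33) and Acrv1 (-0.29), and Spaca1 rose (0.27). Of 15 spermatocyte markers, Stra8 (0.81), Mlh3 (0.44) and Spo11 (0.41) were the largest of 4 rises, and Rec8 (-0.43) and Sycp1 (-0.38) fell. The Sycp1 call was lost with DESeq2 and without LPS replicate 2. Of 10 Leydig cell markers, Cyp17a1 (-2.46), Hsd3b6 (-1.87) and Hsd17b3 (-1.26) were the largest of 5 falls, and Nr5a1 (0.57), Ptgds (0.34) and Cyp11a1 (0.26) rose. The Cyp11a1 call was lost with DESeq2 and without LPS replicate 2, and the Ptgds call without NC replicate 1. Of 4 tested epididymis markers, Lcn2 (1.82) was the only one called. The fall of spermatid markers stands beside the values of Cst8, a spermatid gene, whose difference did not pass the test, and its part in them was not tested.

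**Figure D5:**
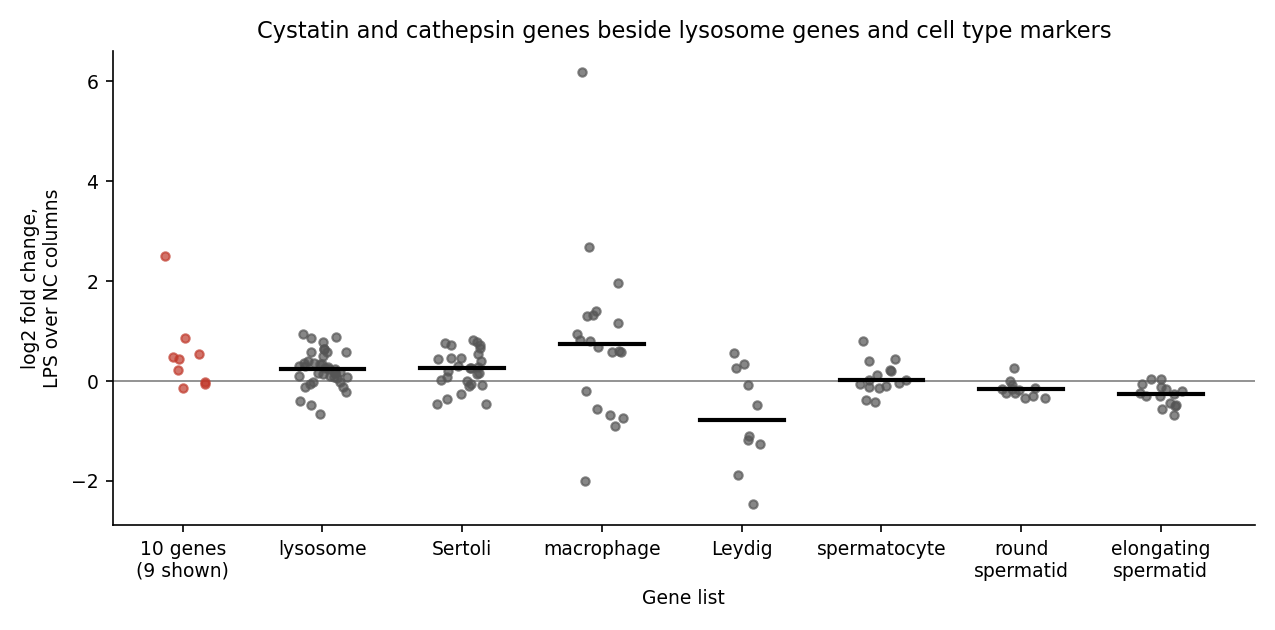
Log2 fold change (LPS columns over NC columns) of the genes that passed the filter in each list, with 1 point per gene and a bar at the list's median where one is given. The cystatin and cathepsin genes (red) run from -0.14 for Cst3 to 2.51 for Cst9, which was chosen, like Cst13, for its rise in this contrast. Among the tested relatives the largest value is 0.87, for Ctss. The medians are 0.24 for lysosome genes, 0.26 for Sertoli cell, 0.74 for macrophage, -0.79 for Leydig cell and -0.26 for elongating spermatid markers.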

How the data were processed

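The authors deposited raw counts of reads for each gene in 4 libraries of whole mouse testis, in a single table with the leading columns of a featureCounts table, per the file headers. The tools named, without roles, are DESeq, edgeR 3.12.1, STAR 2.5.3a, Trimmomatic 0.36, Subread 1.5.1 and featureCounts, and the build is mm10, per the submitters' processing notes. The sources used here give neither the annotation release nor the strand setting. Libraries were made with a stranded mRNA kit, per the labels' protocols.

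Low counts were removed by filterByExpr in edgeR 4.0.16 (minimum count 10), leaving 20855 of 49492 rows, scaled by TMM and compared with the quasi-likelihood test, with Benjamini-Hochberg adjustment over all tested genes. With 2 residual against 34 prior degrees of freedom, a gene's spread was estimated mainly from other genes. The SE is the one implied by the F statistic. Replicate pairs had a chi-square of 2.31 (LPS columns) and 2.20 (NC columns) per degree of freedom over genes and were kept as separate samples. The procedure was tested on simulated data. Alternatives were RLE and library-size scaling, 2 other filters, DESeq2 1.42.0, limma-voom (limma 3.58.1), each library left out, and the replicate number as a block. CPM used TMM-scaled library sizes, and CPM per kilobase (RPKM) used the deposited gene lengths. Sequences are from RefSeq, GRCm38.p6.

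All 10 genes are named. From each other list, all called genes are named where 5 or fewer were called, and otherwise the 3 largest in each direction. A lysosome gene that this rule names is not reported here. The genes, lists and motifs were chosen with earlier results of these data known. No explanation was tested.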

Additional observations from a re-analysis of the deposited data

How the results depend on the processing

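Across all genes, edgeR called 6563, with 3169 higher and 3394 lower, and DESeq2 called 3299, with 1454 higher and 1845 lower, both with Benjamini-Hochberg adjustment. Scaling by library size alone gave 4207 higher and 2579 lower calls in edgeR, a share of 62.0% higher, beside 48.3% after TMM. Leaving out 1 library gave 4807 to 5692 calls. The replicate numbers are not said to pair the libraries, and same-numbered libraries deviated together with a correlation of 0.0182 across genes. With the replicate block edgeR called 6970 genes, and among the 10 genes it changed the call of Cst3 (adjusted p = 0.0424).

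Of the 7 tested relatives of Cst9 and Cst13, Cstb, Ctsl and Ctss kept their calls and directions under all 11 alternatives, while Ctsb lost its call in 4 and Cst3 gained one in 3. Cst8 and Cst12 changed sign while not called. Cst8 was at 0.00946 and Cst12 at 0.0410 with library size only, and Cst12 ranged from -0.166 without LPS replicate 1 to 0.104 without LPS replicate 2. The row 8030411F24Rik was at -0.214 without LPS replicate 1, -0.106 without NC replicate 1 and 0.228 without LPS replicate 2. The cause of these changes was not tested. Low counts limit what can be said of Cst11, at 17 counts over all libraries, and of most other cystatins. Of the 20 listed in the table, 17 did not pass the filter, and 4 had no count in any library. Whether depth or absence from the tissue accounts for this was not tested.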

Other observations

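Several family members below the filter on low counts had unequal counts between the groups. They are named here after their values were seen, and no test is reported for them gene by gene. The edgeR fit with no filter on low counts did include genes with any count, with the lower calls given above. Fetub, a cystatin-like plasma protein gene, had 1 and 2 counts in the LPS columns, against 11 and 12 in the NC columns. Ctse, an aspartic protease gene, had 1 and 2 counts in the LPS columns, against 10 and 14 in the NC columns. Cst7, the leukocyte cystatin F gene, had 2 and 9 counts in the LPS columns, against 2 and 0 in the NC columns, so the difference rests on 1 library. The stefin A genes Stfa1, Stfa2, Stfa3 and Stfa2l1, which neutrophils express, had at most 2 counts in any library.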
